A study of Mus musculus with 6 samples.

Results

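Primary and motile cilium genes were compared between neural stem cells of young and old mice, on arrays that read messenger RNA. The genes were chosen by symbol alone: those of the intraflagellar transport (Ift), Bardet-Biedl syndrome (Bbs), axonemal dynein (Dnah, Dnai), tektin (Tekt), radial spoke (Rsph), cilia and flagella associated (Cfap), sperm associated antigen (Spag) and tectonic (Tctn) families, plus Mks1, Cc2d2a, Ofd1, Hydin, Ak7, Drc1, Arl13b and Rpgrip1l. The last 2 had no probe set assigned to them alone and were not analysed here. The rule found 89 of the 18193 genes that the array annotation names by a probe set of their own, read by 138 probe sets. Where a gene had several, the brightest on average across the 6 arrays was used. By known role 28 genes were placed in a primary cilium class, 55 in a motile cilium class and 6 apart. The last were Spag and Cfap genes with a known role outside motile cilia.

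The samples were neural stem cells, self-renewing cells that can form neurons and glia, from C57BL/6JRj mice. The group YoungNSC held 3 samples from mice of 6 weeks and OldNSC held 3 from mice of 9 months, with 1 array per sample. No treatment, transgene or deletion is named for either group. The sources used here do not give the brain region, the sort or culture of the cells or any pooling of animals. They also do not say whether replicates came from separate animals. The p-values therefore weigh the difference between the groups against the spread among these samples, which may be technical.

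A primary cilium is a single immotile antenna that receives signals such as Hedgehog, and neural stem cells carry such a cilium, which is taken down before division. Intraflagellar transport trains carry cargo along it, the BBSome carries membrane proteins out of it, and the transition zone at its base gates what enters. Motile cilia, which ependymal cells bear in tufts to move the brain fluid, use the same transport and add dynein arms, radial spokes, a central pair and other parts of the beating axoneme.

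The values are log2 GCRMA levels, in which dim probe sets collapse to a shared lowest value, the floor, here log2 2.14. No detection calls were used, and log2 4 stands in for background. Across the arrays 38.2 to 40.3% of 45037 probe sets lay at the floor. The ages were parted by a first principal component with 83.2% of the variance, and young replicate 2 was set apart by the second, with 9.93%, so counts are also given without it. The 18 probe sets for hybridisation controls, RNA added to each array, had lower levels on the 3 old arrays than on any young array (mean difference -0.96, exact permutation p = 0.1, two-sided, the smallest that 3 against 3 allows). The array controls thus differed along with age, and the part of this in the gene differences was not tested. Listed stem cell markers were above log2 4 on all 6 arrays for 10 of 10 genes measured, of which 3 fell (Nes, Sox1 and Sox9) and 1 rose (Msi1). Microglia, endothelial and choroid plexus markers were above log2 4 on no array, for 0 of 6, 0 of 5 and 0 of 6 genes, and 1 of 6 mural and fibroblast markers was tested and fell.

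The primary cilium class was read in these cells at both ages, whereas most of the motile class was not. Of the 28 primary genes 24 lay above log2 4 on all 6 arrays and 0 at the floor on all 6. Of the 55 motile genes 9 lay above log2 4 on all 6 arrays and 37 lay at the floor (within 0.01) on all 6. Over all named genes, 9585 of 18193 lay above log2 4 on every array. The share of each class that lay above log2 4 on at least 3 arrays, and so was tested, was 92.9% for primary and 16.4% for motile genes, against 55.2% of all named genes. These shares describe array signal under a fixed level, and a gene at the floor may still be transcribed at a level that its probes do not read.

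**Figure D1:**
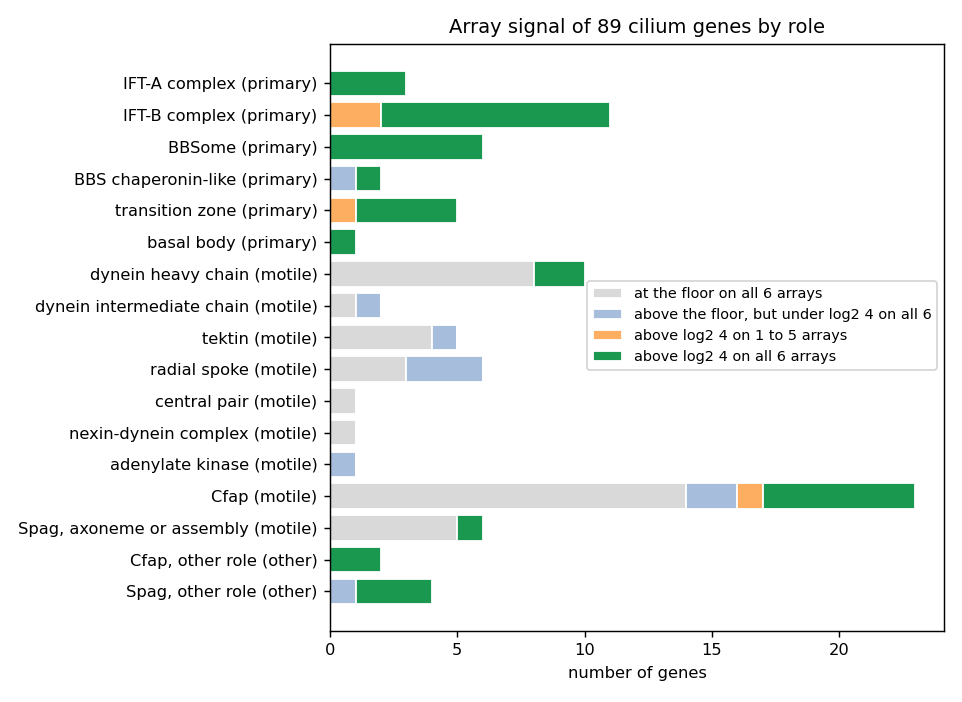
Number of cilium genes (horizontal axis) in each role (vertical axis, class in brackets), divided by whether the log2 level lay at the floor on all 6 arrays, above the floor but under log2 4 on all 6, above log2 4 on 1 to 5 arrays, or above it on all 6. The IFT-A complex and the BBSome lie above log2 4 throughout, and the single-symbol probe sets of the radial spoke genes and tektins lie under it throughout.

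Old and young cells were then compared gene by gene with limma, adjusting over all 19858 probe sets above the filter. Of the 40 cilium genes tested 18 changed, where 40.6% of 10050 tested genes did. Of the 26 primary genes tested 10 rose in old cells and 4 fell, against a background of 22.0% of 10050 tested genes rising and 18.5% falling. The shares were 38.5% rising and 15.4% falling, so rises were more frequent than in the background, by a difference that was not tested. Ift172 passed the filter only through the old arrays and had to differ, and without it 9 of 25 rose. Of the 9 motile genes tested 3 rose and 0 fell. An unadjusted p under 0.05 in limma was found for 4 of the 9 and for 5204 of all 10050 tested genes. The median log2 difference of the tested genes was 0.19 for primary and 0.35 for motile genes, beside 0.01 for all 10050. Every old array lay above every young array for 14 of 26 primary and 5 of 9 motile genes, where the background is 31.8%. Without Ift172, whose ages could not overlap under the filter, it was 13 of 25 primary genes. Every old array lay below every young array for 8 of 26 primary and 0 of 9 motile genes, where the background is 28.2%.

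The count of rising primary genes was lower on leaving out most single arrays. It was 9 without young replicate 2 and 6 without young replicate 3. Without old replicates 1, 2 and 3 it was 6, 5 and 3. The median difference of the primary genes ran from 0.14 to 0.24 in these fits. Each fit has fewer arrays, and no count over all genes is set beside it. Whether the lower counts are particular to primary genes was thus not tested. Apart from Ift172, only Ift80 and Tctn3 among the rising primary genes were called on leaving out each of the 6 arrays in turn. Of the falling primary genes only Bbs5, Bbs7 and Ift27 were, and of the motile genes Dnah8, Cfap126 and Cfap97. Ift172 was called each time as well, but the filter, set on all 6 arrays, kept it through the old arrays alone. After quantile normalization of the values again, 7 primary genes rose and 6 fell.

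**Figure D2:**
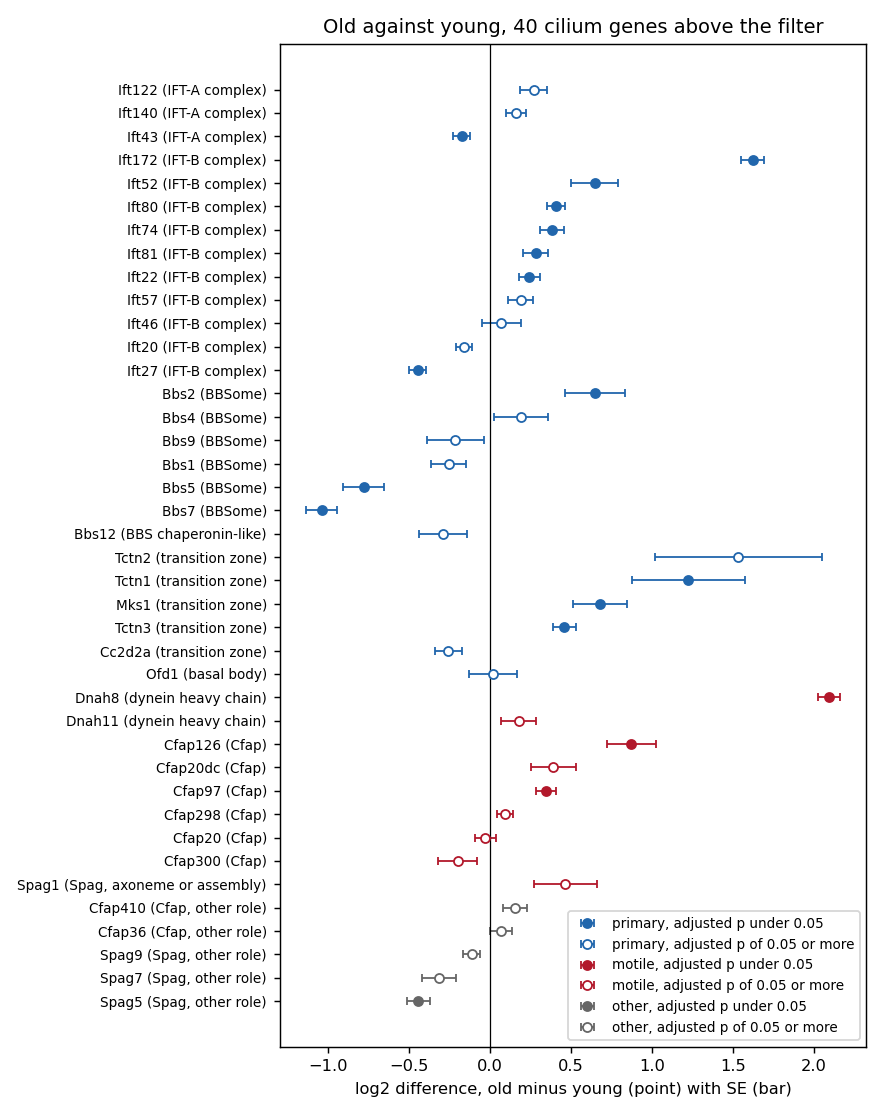
Log2 difference, old minus young, for the 40 cilium genes above the filter (point) with its standard error in limma (bar), 3 arrays per age, grouped by role. Filled points have an adjusted p under 0.05. The IFT-B and transition zone genes lie mostly to the right of 0, the BBSome genes lie on both sides, and Dnah8 at 2.09 lies farthest to the right.

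Most of the changes in the transport trains were rises in the IFT-B complex, which drives movement from the base to the tip. Of its 10 tested genes 6 rose and 1 fell, beside 22.0% rising and 18.5% falling over all genes. The 6 include Ift172, whose call on leaving out arrays is no support because the filter kept it through the old arrays alone. Of the others only Ift80 kept the call on leaving out each array. Ift172, the large subunit at the train's edge that acts in turnaround at the tip, stood at 3.10, 2.89 and 3.00 on the young arrays and at 4.66, 4.56 and 4.62 on the old arrays (log2). The young arrays all lay under log2 4 and the old arrays all above it, so the rise is given as at least 1.53-fold, measured against log2 4, and no p is given because the filter kept it through the old arrays alone. Ift52, a core subunit, stood at 8.95, 8.59 and 8.96 in young and 9.30, 9.46 and 9.68 in old cells, a log2 difference of 0.64 (SE 0.14, adjusted p = 0.0202), and the call was lost without old replicate 2 or old replicate 3.

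Ift80 stood at 11.77, 11.65 and 11.63 in young and 12.11, 12.10 and 12.07 in old cells, a log2 difference of 0.41 (SE 0.056, adjusted p = 0.0042). The 3 old arrays lay within 0.04 of each other and above all the young ones. Its other tested probe set had a difference of 0.67 and did not pass (adjusted p = 0.116). Ift74 and Ift81 pair to bind tubulin as cargo, and both rose. Ift74 stood at 11.38, 11.15 and 11.33 in young and 11.67, 11.63 and 11.70 in old cells, a log2 difference of 0.38 (adjusted p = 0.0137), and Ift81 had one of 0.28 (adjusted p = 0.038). The Ift74 call was lost without old replicate 3, and that of Ift81 held only without old replicate 2. Ift22, a small GTPase-like subunit, had one of 0.24 (adjusted p = 0.0368), and its call held only without young replicate 1.

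Ift27 was the IFT-B gene that fell. It encodes a small GTPase that links the trains to exit of the BBSome. Its levels were 13.06, 12.93 and 13.00 in young and 12.56, 12.55 and 12.52 in old cells, a log2 difference of -0.45 (SE 0.053, adjusted p = 0.00254), with no overlap of the ages. Both of its other probe sets fell as well, with differences of -0.67 and -0.50 (adjusted p = 0.000484 and 0.00237), so all 3 probe sets of the gene fell. Ift20, which also works at the Golgi, stood at 11.30, 11.19 and 11.24 in young and 11.07, 11.07 and 11.12 in old cells and did not pass (difference -0.16, adjusted p = 0.0532). Every old array lay below every young one, and it passed as lower without young replicate 2, after quantile normalization, median centring or array weights, and on the mean of probe sets. Ift57 (0.19, adjusted p = 0.106) and Ift46 (0.07, adjusted p = 0.681) did not pass.

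Ift88, the core subunit whose loss is the usual way to remove cilia in mice, could not be read well here. It stood at 3.93, 3.93 and 3.91 in young and 3.93, 4.12 and 4.41 in old cells, at the edge of log2 4, and was not tested. With no filter on low values its difference was 0.23 (adjusted p = 0.479). In the IFT-A complex, which drives the return from the tip, the 3 tested genes of the chosen families had differences from -0.18 to 0.27. Ift43 had a log2 difference of -0.18 (adjusted p = 0.0485), which failed to pass with each of the 6 arrays removed in turn. Ift122 (0.27, adjusted p = 0.0524) and Ift140 (0.16, adjusted p = 0.0969) did not pass, although every old array lay above every young array for both. Of the IFT-A genes outside the chosen families, Wdr35 rose (0.37, adjusted p = 0.0339). Ttc21b (-0.26, adjusted p = 0.19) and Wdr19 (0.14, adjusted p = 0.579) did not pass.

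Subunits of the BBSome went in opposite directions. Bbs7 stood at 10.70, 10.68 and 10.73 in young and 9.55, 9.58 and 9.86 in old cells, a log2 difference of -1.04 (SE 0.094, adjusted p = 0.00109), or 2.06-fold higher in young cells. Bbs2, which pairs with Bbs7 in the complex, stood at 9.43, 8.83 and 9.34 in young and 9.92, 9.65 and 9.97 in old cells, a log2 difference of 0.65 (SE 0.19, adjusted p = 0.0439). The Bbs2 call was lost without young replicate 3 and without each old replicate, while that of Bbs7 held on leaving out each array. Bbs5, which binds membrane lipids, fell as well, from 9.06, 8.78 and 9.24 to 8.20, 8.31 and 8.24, a log2 difference of -0.78 (SE 0.13, adjusted p = 0.00721).

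The remaining BBSome genes did not pass. Bbs1, the subunit that meets the GTPase Arl6 at the membrane, stood at 8.77, 8.69 and 8.57 in young and 8.53, 8.52 and 8.21 in old cells (difference -0.26, adjusted p = 0.122). All its old arrays lay below the young ones. Bbs9 (-0.22, adjusted p = 0.374) and Bbs4 (0.19, adjusted p = 0.409) overlapped between the ages, and the 3 further tested probe sets of Bbs4 had differences of 0.14, 0.45 and 0.06, none of which passed. Of the chaperonin-like proteins that help to build the complex, Bbs12 did not pass (-0.29, adjusted p = 0.179), and Bbs10 stayed under log2 4 on all arrays.

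Of the 5 transition zone genes 3 rose and 0 fell in limma, beside 22.0% rising and 18.5% falling over all genes. All 5 had an unadjusted p under 0.05 in limma, as had 5204 of all 10050 tested genes. The 5 include Cc2d2a, whose difference was negative. The tectonics are membrane-linked proteins of this gate. Tctn1 stood at 6.23, 4.91 and 5.71 in young and 6.82, 6.64 and 7.06 in old cells, a log2 difference of 1.22 (SE 0.35, adjusted p = 0.0418), or 2.34-fold. Tctn2 stood at 5.71, 3.68 and 5.08 in young and 6.46, 6.33 and 6.28 in old cells, and with a young SD of 1.04 against 0.090 in old cells its difference of 1.53 did not pass (SE 0.52, adjusted p = 0.0681). Young replicate 2 was the lowest array for both. The Tctn1 call was lost without young replicate 3 or any old replicate, and Tctn2 passed without young replicate 1 or without young replicate 2.

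Tctn3 had the steadiest rise of this group, from 8.19, 8.16 and 8.12 to 8.68, 8.49 and 8.69, a log2 difference of 0.46 (SE 0.072, adjusted p = 0.00636). Its other tested probe set, with a difference of 0.36, did not pass (adjusted p = 0.322), and on the mean of its probe sets the call was lost. Mks1, a founding protein of the Meckel syndrome module of the gate, stood at 5.83, 5.35 and 5.90 in young and 6.53, 6.33 and 6.25 in old cells, a log2 difference of 0.68 (SE 0.17, adjusted p = 0.0283), lost without each of the old replicates. Cc2d2a, of the same module, leaned the other way (-0.26, adjusted p = 0.0556) and did not pass. Ofd1, of the centriole and its satellites, stood at 9.52, 9.08 and 9.56 in young and 9.53, 9.35 and 9.35 in old cells, with overlapping ages (difference 0.02, adjusted p = 0.937).

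**Figure D3:**
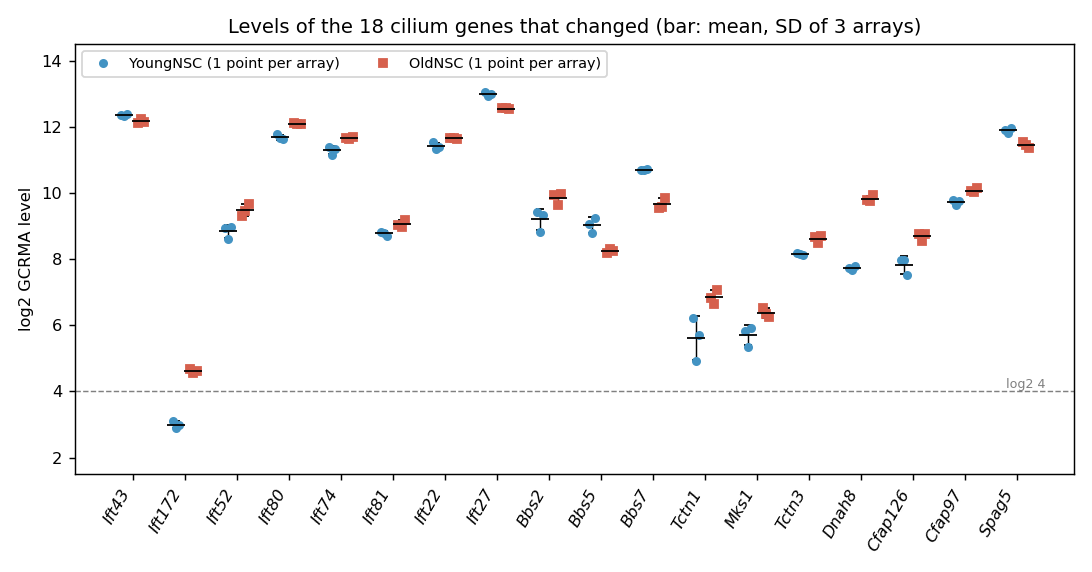
Log2 GCRMA level (vertical axis) of the 18 cilium genes with an adjusted p under 0.05, 1 point per array (circles young, squares old), with the mean and SD of 3 arrays. The dashed line marks log2 4. Ift172 lies under the line at all 3 young arrays, and the young points of Tctn1 spread over 4.91 to 6.23.

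Many cilium genes carry in their promoters an X-box, the paired site of the RFX transcription factors, and the promoters of 4 primary genes are shown because 3 of them hold its paired letters and changed, in both directions. Promoters were read from RefSeq (build GRCm38.p6), 250 bases before to 50 after the start of the gene, on the strand of the gene, and 77 of the 89 genes matched by symbol. The paired letters searched were GTTNCC and, after NN, the reverse complement GGNAAC, chosen after several spellings had been tried, and they read the same on both strands. They were found in 3 of 25 primary and 2 of 46 motile genes with a promoter, against 0.529% of all 27025 genes in the promoter table. The single site GTTGCC, searched on both strands and able to overlap the longer motif, was found in 12 of 25 primary (48%) and 16 of 46 motile genes (34.8%), against 14.1% of all. The primary genes with the paired letters were Tctn1 and Mks1, which rose, and Bbs7, which fell, and the motile ones were Cfap298 and Cfap20dc, neither of which passed. Among primary genes the single site was found in 4 of 8 that rose, 3 of 4 that fell and 4 of 11 that did not pass. A match describes letters and not a bound site.

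Capitals mark the paired letters in Tctn1 (chr5:122264411-122264710, minus strand, from base 37 after the start), Mks1 (chr11:87852965-87853264, plus strand, from base -24) and Bbs7 (chr3:36613340-36613639, minus strand, from base -121). In Ift172 (chr5:31291065-31291364, minus strand), which lay under log2 4 on the young arrays only, they mark a single site that begins at base 1 after the start.
Tctn1: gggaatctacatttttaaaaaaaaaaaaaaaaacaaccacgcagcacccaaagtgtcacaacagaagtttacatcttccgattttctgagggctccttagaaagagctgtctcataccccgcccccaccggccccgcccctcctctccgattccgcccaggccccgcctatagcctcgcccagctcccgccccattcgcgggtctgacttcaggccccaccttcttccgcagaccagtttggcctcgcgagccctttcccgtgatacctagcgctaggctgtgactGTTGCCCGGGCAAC
Mks1: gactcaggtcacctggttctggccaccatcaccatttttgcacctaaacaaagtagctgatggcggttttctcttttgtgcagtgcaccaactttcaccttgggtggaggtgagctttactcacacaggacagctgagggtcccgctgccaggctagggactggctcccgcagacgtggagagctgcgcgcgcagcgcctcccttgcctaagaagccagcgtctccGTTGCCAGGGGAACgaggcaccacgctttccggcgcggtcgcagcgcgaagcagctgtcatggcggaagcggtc
Bbs7: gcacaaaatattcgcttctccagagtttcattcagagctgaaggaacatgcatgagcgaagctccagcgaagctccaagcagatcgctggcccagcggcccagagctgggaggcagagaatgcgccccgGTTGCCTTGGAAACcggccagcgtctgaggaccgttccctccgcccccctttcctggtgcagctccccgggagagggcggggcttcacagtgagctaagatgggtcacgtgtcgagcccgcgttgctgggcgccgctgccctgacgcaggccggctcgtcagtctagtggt
Ift172: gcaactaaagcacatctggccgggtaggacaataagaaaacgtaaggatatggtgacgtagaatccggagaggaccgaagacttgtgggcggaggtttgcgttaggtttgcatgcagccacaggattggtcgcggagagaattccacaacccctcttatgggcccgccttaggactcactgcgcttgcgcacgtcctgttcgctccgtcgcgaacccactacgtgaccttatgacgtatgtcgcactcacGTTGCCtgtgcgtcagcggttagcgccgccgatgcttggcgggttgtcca

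Of the 55 motile genes 37 lay at the floor at both ages, among them genes of the arms, spokes and central pair. Of the 6 radial spoke genes 3 lay there. Of the 10 dynein heavy chains, the motors of the arms, 8 lay at the floor on all 6 arrays, among them Dnah5 and Dnah9 of the outer arm. Hydin, of the central pair, and Drc1, of the link between dyneins and their regulators, stood at 2.14 on all 6 arrays. Ak7, an adenylate kinase of beating cilia, stood at 2.18, 2.14 and 2.14 in young and 2.14, 2.22 and 2.14 in old cells. On the probe sets of a single symbol, no tektin or radial spoke gene (0 of 5 and 0 of 6) passed log2 4 on any array. A left-out probe set that the annotation shares between 2 radial spoke genes, Rsph3b;Rsph3a, stood at 11.16 to 11.51 on all 6 arrays, with overlapping ages, so 1 or both of those genes were read. Of the 6 axonemal Spag genes 5, including Spag6l, Spag16 and Spag17, lay at the floor throughout.

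The motile gene with the largest rise was Dnah8, an outer arm heavy chain known mainly from sperm. It stood at 7.73, 7.67 and 7.79 in young and 9.78, 9.76 and 9.93 in old cells, a log2 difference of 2.09 (SE 0.0675, adjusted p = 4.22e-05), or 4.26-fold. Its call held on leaving out each array, but its other probe set lay at the floor on all 6 arrays. Dnah11, another heavy chain above log2 4, stood at 10.24 to 10.64 in young and 10.60 to 10.68 in old cells. It overlapped between the ages and did not pass (0.18, adjusted p = 0.257). A left-out probe set shared between heavy chains, Dnah7c;Dnah7b, stood at 5.06 to 5.42 and overlapped between the ages as well. Cfap126, which acts in placing the basal body, stood at 7.97, 7.97 and 7.51 in young and 8.75, 8.55 and 8.77 in old cells, a log2 difference of 0.87 (SE 0.15, adjusted p = 0.0087). The young and old arrays did not overlap for either gene that rose. Cfap97 rose too, from 9.78, 9.64 and 9.75 to 10.04, 10.02 and 10.14, a log2 difference of 0.35 (SE 0.063, adjusted p = 0.0107), and of 0.70 at its other tested probe set (adjusted p = 0.0162).

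Other Cfap genes did not pass. They were Cfap20 of the doublet microtubule (-0.03, adjusted p = 0.738), the dynein assembly factors Cfap298 (0.09, adjusted p = 0.218) and Cfap300 (-0.20, adjusted p = 0.232), and Cfap20dc (0.39, adjusted p = 0.0749), whose other tested probe set passed (0.67, adjusted p = 0.0254). Spag1, which also helps to assemble dynein arms, had a difference of 0.46 (adjusted p = 0.114). Cfap54, of the central pair, was above log2 4 on 2 arrays and so was not tested. It stood at 2.14, 3.18 and 3.26 in young and 4.97, 4.63 and 3.98 in old cells, with every old array above every young one, and with no filter its difference of 1.67 did not pass (adjusted p = 0.108), while it passed with the filter at log2 3.

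The genes set apart for a role outside motile cilia changed in 1 case. Spag5, or astrin, a protein of the mitotic spindle and kinetochores, fell from 11.90, 11.81 and 11.96 to 11.54, 11.45 and 11.35, a log2 difference of -0.44 (SE 0.073, adjusted p = 0.00752), and at both of its other probe sets (-0.74 and -0.68, adjusted p = 0.0371 and 0.0156). Spag9, a scaffold for kinases and motors, and Spag7 did not pass (-0.12 and -0.31, adjusted p = 0.132 and 0.0645), nor did Cfap410 (0.15, adjusted p = 0.162) and the Arl3 partner Cfap36 (0.07, adjusted p = 0.455). Spag4 stayed under log2 4. Markers of other cell states moved with age beside these genes. Over all tested genes 18.5% fell and 22.0% rose. All 6 measured proliferation markers fell, from a mean level of 12.51 to 12.53 on the young arrays to 11.78 to 12.08 on the old arrays (log2). Of 6 neuroblast markers 4 fell (mean 8.57 to 8.99 in young, 6.57 to 6.71 in old cells), by log2 differences from -5.67 to -0.28. Of 5 oligodendrocyte progenitor markers 3 fell (8.48 to 8.56, then 6.10 to 6.26). Nkx2-2, 1 of the 3, passed the filter only through the young arrays and had to differ. The progenitor mean leans on it, as it went from 10.51 in young to 2.26 in old cells. Olig2 did not pass (0.09), and Sox10 lay at the floor. Of 6 astrocyte markers 4 rose (8.76 to 9.32, then 10.22 to 10.66). The mean of the 10 stem cell markers was 12.26 to 12.35 on the young and 12.16 to 12.20 on the old arrays. Their part in the cilium results was not tested.

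Other known genes of the primary cilium, a list of 66 measured genes that are not in the families above, were divided between the directions. Of 60 tested, 14 rose and 11 fell, with a median log2 difference of 0.03, and the share that rose, 23.3%, was near the background of 22.0%. B9d1, a partner of Mks1 in the transition zone, went from 2.51, 2.51 and 2.14 to 7.67, 8.03 and 8.34, which was at least 16.2-fold against log2 4. It passed the filter only through the old arrays and had to differ, as 1 of the 14. Tmem231, of the same module and named after its values were seen, rose from 8.55, 7.43 and 8.23 to 9.39, 9.25 and 9.53, a log2 difference of 1.32 (SE 0.30, adjusted p = 0.0204), lost without young replicate 3 and without each old replicate. The gate did not rise throughout: Cep290, which links membrane to microtubules there, had a difference of 0.13 (adjusted p = 0.2), Tmem107 of -0.31 (adjusted p = 0.0539), and Ahi1 fell (-0.41, adjusted p = 0.00218). Invs, of the segment just beyond it, rose by 1.24 (adjusted p = 0.00125).

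Among the transport genes of that list, Ttc30b of the IFT-B complex rose by 1.01 (adjusted p = 0.00169) and Tulp3, which carries receptors in with IFT-A, by 0.52 (adjusted p = 0.000949). Kif3a, a motor subunit that pulls the trains outward, fell, with a log2 difference of -0.57 (SE 0.084, adjusted p = 0.0053). Of the 3 other probe sets of Kif3a 1 fell as well (-0.53, adjusted p = 0.0098), and the others had differences of -0.22 and -0.41 that did not pass. Dync2h1, the motor of the return path, did not pass (-0.40, adjusted p = 0.307). Cep89, of the appendages that dock the basal body, fell (-0.91, adjusted p = 0.0167), a call lost without each of the old replicates, and its other tested probe set did not pass (-0.37, adjusted p = 0.166). Alms1, of the centrosome, fell too (-0.93, adjusted p = 0.0221), but did not pass without young replicate 3, old replicate 2 or old replicate 3.

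Other known genes of motile cilia, 54 measured, were again mostly unread, with 14 tested, of which 4 rose (28.6%) and 2 fell (14.3%), near the 22.0% and 18.5% of all genes. Foxj1, the master regulator of motile cilia, stood at 3.54, 2.91 and 3.63 in young and 5.77, 5.36 and 6.30 in old cells, which was at least 3.50-fold against log2 4, and it passed the filter only through the old arrays and had to differ. Rfx3, a factor that acts with it, did not pass (-0.05, adjusted p = 0.69), and Mcidas, which acts upstream, was not analysed here. Dynlrb2, a dynein light chain, rose by 1.14 (adjusted p = 0.00508), Iqcg by 1.10 (adjusted p = 0.00172) and Nme7 by 0.22 (adjusted p = 0.0472), of which the Nme7 call was lost without any single array save young replicate 1. Mlf1 fell from 6.26, 4.92 and 5.31 to 2.77, 2.44 and 2.74, at least 2.82-fold against log2 4, but passed the filter only through the young arrays and had to differ. Ccdc153 fell from 7.28, 5.96 and 6.95 to 4.85, 4.90 and 5.38 (adjusted p = 0.0189), lost without young replicate 3, old replicate 1 or old replicate 2.

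**Figure D4:**
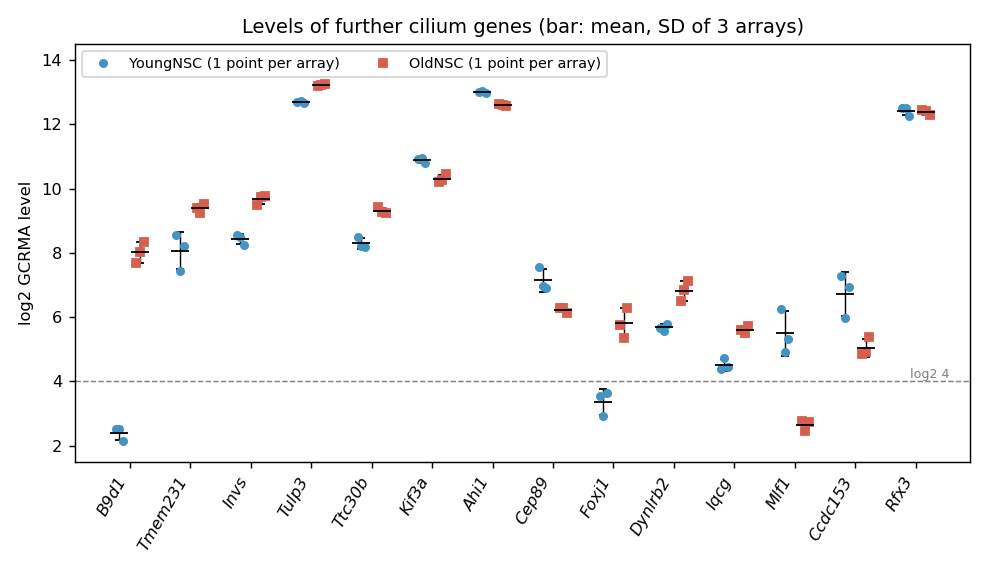
Log2 GCRMA level (vertical axis) of 14 cilium genes outside the chosen families, 1 point per array (circles young, squares old), with the mean and SD of 3 arrays and a dashed line at log2 4. B9d1 and Foxj1 lie under the line on all young arrays and above it on all old ones, and Mlf1 does the reverse.

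Ependymal cells are the cells of the brain wall that bear motile cilia, and 11 of their markers were measured, among them Foxj1, Dynlrb2 and Ccdc153, which are also on the motile list. Of the 5 tested 4 rose, including S100b (2.93, adjusted p = 0.000686) and Rarres2 (0.55, adjusted p = 0.00657), and Ccdc153 fell. Over all tested genes 22.0% rose and 18.5% fell. Foxj1, 1 of the 4, passed the filter only through the old arrays and had to differ. S100b and Foxj1 had the largest rises of the 4, and the mean level of the 11 given below leans on both. S100b is also a marker of astrocytes, of which 4 of 6 measured rose. The other 6, Tmem212, Mia, Enkur, Fam183b, Tppp3 and Pifo, stayed under log2 4 on all 6 arrays. The mean level of the 11 was 3.80 to 4.04 on the young arrays and 4.38 to 4.63 on the old arrays (log2), beside 3.39 to 3.42 and 3.50 to 3.52 for the 55 motile genes. In such samples of many cells, more cells of a type cannot be told apart from more RNA per cell.

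Replicates of the tested primary genes spread more among young than among old arrays, with a median SD of 0.116 in young and 0.092 in old cells, and over all 10050 genes the medians were 0.099 and 0.077. Without a test of the difference, the wider spread among young arrays is thus shared by the primary genes and the genes at large. Of the 18 cilium genes that changed, 5 had a further tested probe set, and all of those had the same sign, with 3 genes called the same way throughout.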

How the data were processed

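Total RNA of 6 samples was hybridised to 1 array each. The authors deposited 1 log2 level for each probe set and array, and the submitters' processing notes name GCRMA, a method that corrects background by probe sequence and normalizes between arrays. Its version is not stated in those notes, and the scale was judged from the values themselves. Gene names come from the platform annotation where it lists 1 symbol, and 2 probe sets with several cilium symbols were left out (their levels are given above). The filter asked for log2 above 4 on 3 or more arrays (19858 of 45037 probe sets passed), and these were compared with limma 3.58.1 in R 4.3.3 (lmFit, eBayes, two-sided, Benjamini-Hochberg over all kept, threshold 0.05, 4 residual and 1.47 prior degrees of freedom). Standard errors are limma's moderated ones. Where all arrays of 1 age lay under log2 4, the fold is a lower bound measured from that level.

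The cilium genes, classes and lists were chosen with earlier results of these data known. All cilium genes may be named, those past the threshold and a few core subunits with values by array. Of the further cilium lists and the ependymal list, up to 4 genes with the smallest p in each direction are named, plus Foxj1, Rfx3, Kif3a, Cep290 and Dync2h1. Tmem107, Tmem231, Wdr35, Ttc21b and Wdr19 fall outside that rule. Precision is limited by the number of arrays. Alternatives were other filters, scalings, weights, thresholds, a replicate block, the mean of probe sets and leaving out arrays. Plots used matplotlib 3.10.9 (Python 3.11.15).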

Additional observations from a re-analysis of the deposited data

How the results depend on the processing

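Of 538 single gene differences under alternatives other than leaving out arrays or moving the threshold, 493 kept direction and side of the threshold, 26 lost the call, 15 gained it and 4 changed sign. The sign changes were the log2 difference of Ofd1 after quantile normalization (-0.029) and with array weights (-0.070), the log2 difference of Ift46 with array weights (-0.017) and the log2 difference of Rfx3 with array weights (0.0038). The cause was not tested. On leaving out 1 array the difference of Ofd1 ran from -0.14 to 0.10, that of Cfap20 from -0.075 to 0.016, that of Ift46 from -0.038 to 0.16 and that of Rfx3 from -0.12 to 0.0011. The count of cilium genes higher in old cells, 13, was 7 with no filter, 5 at an adjusted p under 0.01 and 6 to 13 on leaving out 1 array, the lowest without old replicate 3. The count lower, 5, was 8 with array weights, 8 at an adjusted p under 0.1 and 4 to 7 on leaving out 1 array. Primary genes higher, 10, numbered 4 with no filter, 3 at an adjusted p under 0.01 and 3 to 10 on leaving out 1 array. Motile genes lower, 0, numbered 1 (Spag5) with classes by symbol prefix alone. The median of motile genes, 0.35, was 0.26 with the filter at log2 3, 0.00 with no filter, where most genes sit at the floor, and 0.12 with classes by prefix.

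The replicate numbers share no stated source, and deviations of same-numbered arrays correlated at -0.16, -0.11 and 0.16, so they were not taken as pairs. With the replicate number as a block, 11 cilium genes were higher and 4 lower (8 and 3 for primary, 3 and 0 for motile), with medians of 0.19 and 0.35. Signal near the floor limits what can be said of motile genes, since GCRMA understates both change and spread there.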
